A study of Mus musculus with 12 samples.

Results

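The transcripts of 10 integrin chains were followed through 4 sorted populations of mouse thymocytes. The chains were αE (Itgae), α4 (Itga4), αL (Itgal), α5 (Itga5), α6 (Itga6), αv (Itgav), β7 (Itgb7), β1 (Itgb1), β2 (Itgb2) and β3 (Itgb3). A probe set was used where the platform annotation gave one of these symbols and no other. This gave 30 of the 34945 probe sets with 1 gene symbol, for 10 of the 18193 genes. Itgb1 had 6 probe sets, Itga4 and Itgav 5 each, Itga5 4, Itgae, Itgal, Itga6 and Itgb3 2 each, and Itgb7 and Itgb2 1 each.

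Total RNA of C57BL/6 thymocytes, taken straight after isolation from cells that were neither treated nor cultured, had been hybridised to 12 Affymetrix mouse arrays, 3 for each flow-sorted population. DN cells lacked CD4, CD8a and TCRb, and DP cells carried CD4 and CD8a. CD4SP cells carried CD4 and a high level of TCRb without CD8a, and CD8SP cells carried CD8a and a high level of TCRb without CD4. The age and sex of the mice are not given in the sources used here, and no label ties the 3 arrays of a group to separate mice. The p-values therefore measure the spread from array to array, which may be technical. Each value is a log2 value from which the mean over the 3 DP arrays was subtracted, so that 1 unit is a 2-fold difference and DP lies at 0 for every gene. The level of a transcript is lost in such values, and values of different genes do not say which transcript is more abundant.

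An integrin is a receptor of an α and a β chain that binds matrix proteins or receptors on other cells, and a chain reaches the cell surface only together with a partner. The β1 chain has many α partners, whereas β7 has only α4 and αE: αEβ7 (CD103) binds E-cadherin on epithelial cells, and α4β7 binds MAdCAM-1 in the vessels of the gut. The receptor αLβ2 (LFA-1) binds the ICAM proteins, α4β1 binds VCAM-1 and fibronectin, α5β1 fibronectin, α6β1 laminins, and αvβ3 vitronectin and other matrix proteins. In the thymus these receptors are known for the adhesion of progenitors and DP cells to the epithelium and for the passage of mature cells through the medulla.

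The α4 chain shares its partners β7 and β1 between the receptors α4β7 and α4β1, and the transcripts of these 3 chains took different courses. Their promoter windows are therefore shown, from 250 bases before to 50 bases after the gene start, 5′ to 3′ on the gene's strand, from RefSeq on GRCm38.p6. Windows were found for 5 of the 10 members, Itgb7, Itga4, Itgb1, Itga5 and Itgav, and there was none for Itgae, Itgal, Itgb2, Itga6 and Itgb3. Capitals mark matches on either strand. The letters TGTGGT were searched for RUNX factors, the letters GGAAGT for ETS factors, the letters CACCC for KLF factors and the letters AGATAA for GATA factors.
Itgb7, chr15:102231886-102232185, minus strand: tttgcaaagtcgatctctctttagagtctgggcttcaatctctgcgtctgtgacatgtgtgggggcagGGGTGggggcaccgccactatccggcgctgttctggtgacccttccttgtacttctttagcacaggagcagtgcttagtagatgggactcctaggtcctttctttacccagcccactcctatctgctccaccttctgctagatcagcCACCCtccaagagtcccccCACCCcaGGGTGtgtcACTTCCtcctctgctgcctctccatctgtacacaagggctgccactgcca
Itga4, chr2:79255176-79255475, plus strand: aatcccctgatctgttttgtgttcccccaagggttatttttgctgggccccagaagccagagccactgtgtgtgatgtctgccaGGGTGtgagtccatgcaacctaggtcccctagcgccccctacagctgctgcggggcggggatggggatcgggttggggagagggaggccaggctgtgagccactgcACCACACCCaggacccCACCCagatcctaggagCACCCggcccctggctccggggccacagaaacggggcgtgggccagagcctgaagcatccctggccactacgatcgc
Itgb1, chr8:128685404-128685703, plus strand: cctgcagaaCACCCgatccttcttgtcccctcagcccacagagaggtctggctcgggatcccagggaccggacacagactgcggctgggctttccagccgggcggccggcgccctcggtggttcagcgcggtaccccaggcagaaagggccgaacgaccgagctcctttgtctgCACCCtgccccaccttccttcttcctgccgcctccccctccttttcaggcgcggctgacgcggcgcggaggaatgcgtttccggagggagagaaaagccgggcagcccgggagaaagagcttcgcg
The Itgb7 window held 4 KLF matches and 1 ETS match, that of Itga4 4 KLF matches and 1 RUNX match, which share letters in 1 run, and that of Itgb1 2 KLF matches. The Itgav window held 2 ETS matches and 1 KLF match, and the Itga5 window held 0 matches to any of the 4. Over 32851 such windows 57.5% held the KLF letters, 23.8% the ETS letters, 16.8% the RUNX letters and 11.2% the GATA letters. A match is only a match of letters, and a window without one says nothing about the factor.

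The sort genes went with the labels. Cd4 lay between -6.49 and -3.88 on the DN arrays, between -0.76 and -0.52 on the CD4SP arrays and between -9.20 and -8.39 on the CD8SP arrays, all relative to DP. Cd8a lay between -4.59 and -2.63 in DN, between -6.84 and -6.35 in CD4SP and between -0.43 and -0.20 in CD8SP. DN replicate 1 and CD8SP replicate 1 stood apart from the other arrays of their groups, with limma array weights of 0.53 and 0.28, against 0.69 to 1.81 for the other 10 arrays. Results that change without them are given with and without. The DN arrays also carried markers of other cells: all 8 neutrophil markers, all 7 measured markers of NK and innate lymphoid cells and all 4 measured γδ T cell markers were called lower in DP than in DN, as were 3 of 7 B cell and 4 of 10 myeloid markers. Over all genes 18.8% were called lower in DP than in DN, and 2 of 10 thymic stroma markers were. Such calls were not confined to DN. In CD4SP against DP 3 of 7 NK and innate lymphoid, 2 of 10 myeloid and 1 of 4 γδ T cell markers were called higher. There 1 NK and innate lymphoid and 1 of 7 B cell markers were called lower. In CD8SP against DP 2 NK and innate lymphoid, 2 myeloid, 1 γδ T cell and 1 of 8 neutrophil markers were higher, and 1 NK and innate lymphoid marker lower. In CD4SP and in CD8SP against DP, 1 of 3 measured erythroid markers was called higher. Of the 10 stroma markers 1 was called higher in CD4SP, and 1 higher and 1 lower in CD8SP. Over all genes 16.4% were called higher and 16.2% lower in CD4SP, and 18.2% higher and 20.9% lower in CD8SP. Since levels are lost, no marker can be said to be at 0.

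Between DP and DN thymocytes, 8 of the 10 chains passed the test (adjusted p under 0.05, limma over all genes), 4 higher and 4 lower in DP. Over all genes 36.6% passed in this comparison. CD4SP thymocytes differed from DP in 7 chains, 5 higher and 2 lower, against 32.7% of all genes. CD8SP thymocytes differed from DP in 6 chains, 4 higher and 2 lower, against 39.0% of all genes. CD4SP and CD8SP differed from each other in 6 chains, 5 higher and 1 lower in CD4SP, where 12.7% of all genes passed. After quantile normalization between arrays 1 of these last 6, Itgae, was still called, and the other 5 had adjusted p from 0.0823 to 0.581. The same setting left 4 of the 7 calls between CD4SP and DP, those of Itgae, Itgb7, Itgb2 and Itgb3. Set against DN, CD4SP differed in 9 chains (43.7% of all genes), with 7 higher (22.6%) and 2 lower (21.0%), and CD8SP in 7 chains (40.9% of all genes), with 5 higher (18.7%) and 2 lower (22.3%). The median size of the difference was 0.83 over the members and 0.28 over all genes between DP and DN, 0.42 and 0.25 between CD4SP and DP, 0.97 and 0.29 between CD8SP and DP, and 0.57 and 0.18 between CD4SP and CD8SP (log2). Members that passed and differed at least 2-fold numbered 4 in DP against DN (8.42% of all genes), 4 in CD4SP against DP (8.77%), 4 in CD8SP against DP (9.56%), 2 in CD4SP against CD8SP (1.79%), 4 in CD4SP against DN (11.6%) and 3 in CD8SP against DN (9.40%). In each of the 6 comparisons the share of the members called was above that of all genes. The members were chosen with earlier results of these data known, so these shares are no test of integrin chains as a family.

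The arrays of both groups did not overlap for 8 members in DP against DN (49.8% of all genes), 9 in CD4SP against DP (49.4%), 7 in CD8SP against DP (48.6%), 7 in CD4SP against CD8SP (30.3%), 9 in CD4SP against DN (55.5%) and 8 in CD8SP against DN (49.7%). Of the 30 probe sets 14 were called in DP against DN (36.7% of all probe sets), 13 in CD4SP against DP (31.4%), 15 in CD8SP against DP (39.3%), 13 in CD4SP against CD8SP (12.9%), 20 in CD4SP against DN (43.2%) and 20 in CD8SP against DN (41.3%). Comparisons that share a group share its arrays. In bulk samples of this kind, fewer cells of a type and less RNA per cell cannot be told apart.

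**Figure D1:**
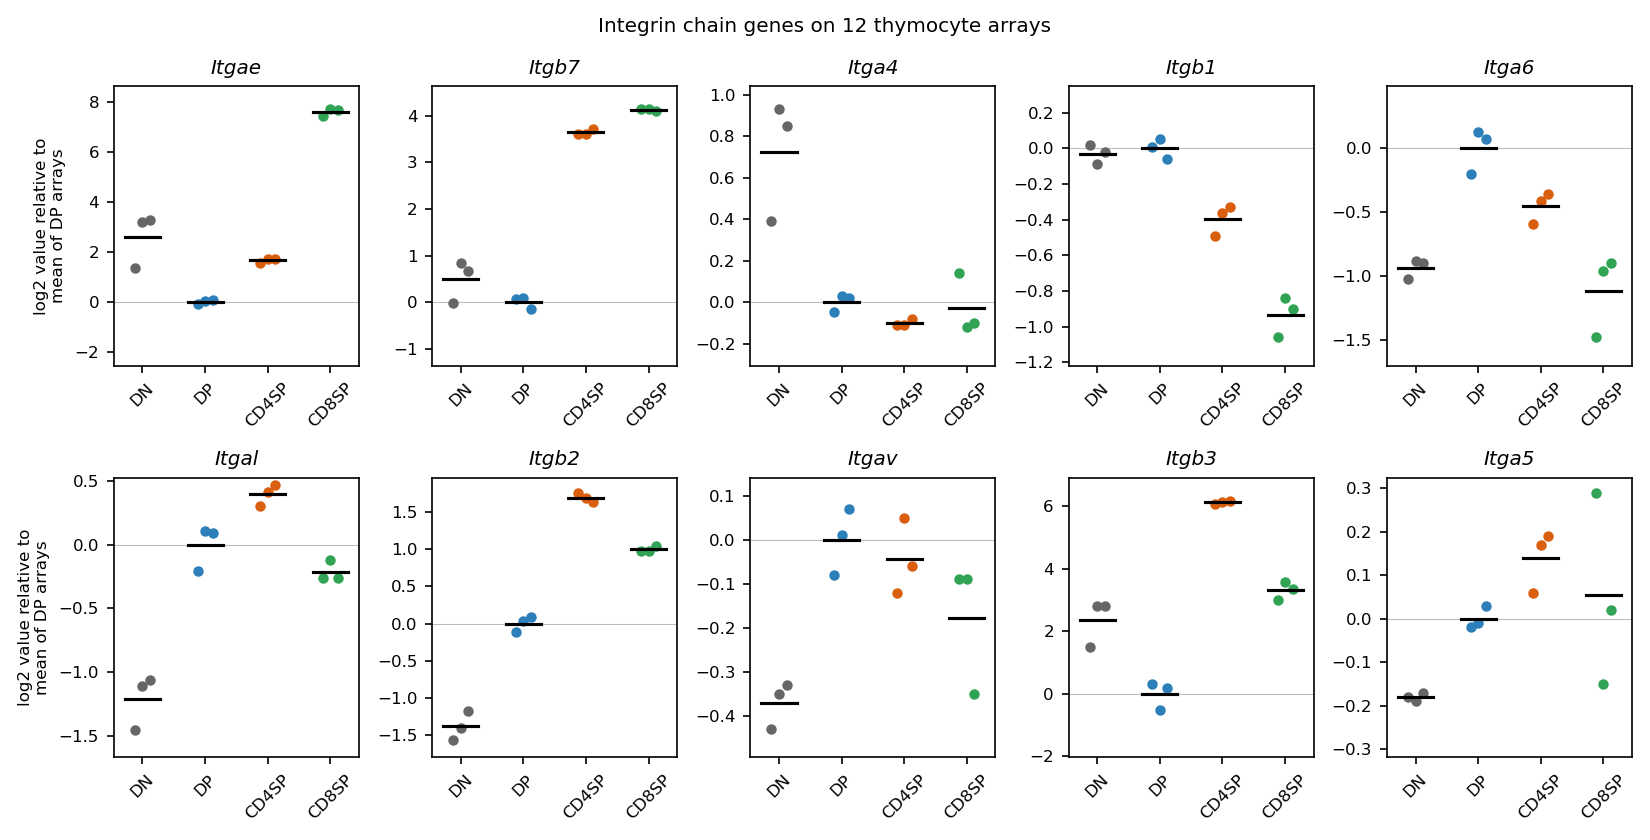
Value of each of the 10 integrin chain genes on each of the 12 arrays (log2 relative to the DP mean, with its own axis per gene), with points for arrays and lines for group means. Itgae was highest on the CD8SP arrays (7.44 to 7.71), Itgb3 on the CD4SP arrays (6.06 to 6.18), and Itgb7 lay at 3.60 or more on every CD4SP and CD8SP array.

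Itgae (gene ID 16407) codes for αE, which is known from CD8 T cells and dendritic cells of epithelia and from part of the regulatory T cells. Its log2 values were 1.36, 3.21 and 3.27 on the DN arrays, -0.09, 0.03 and 0.07 on the DP arrays, 1.55, 1.73 and 1.74 on the CD4SP arrays, and 7.44, 7.71 and 7.66 on the CD8SP arrays. The CD8SP arrays lay far above the rest, DP lay lowest, and the CD4SP values fell within the range of the DN values. Itgae was higher in CD8SP than in DP by 7.60 ± 0.40 (log2 ± SE, adjusted p = 1.66e-07), a 194-fold difference and the largest rise in that comparison among the 18193 genes. Its probe sets 1447541_s_at and 1449216_at gave 7.29 and 7.92. In CD4SP the rise over DP was 1.67 ± 0.40 (adjusted p = 0.00745), or 3.19-fold, so that CD4SP was 60.9-fold lower than CD8SP (-5.93 ± 0.40, adjusted p = 1.09e-05), the third largest fall in that comparison.

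Itgae also fell in DP relative to DN, by 2.61 ± 0.40 (log2, adjusted p = 0.000387), or 6.12-fold. DN replicate 1 was the lowest DN array for Itgae. Without it the difference was -3.24 (adjusted p = 8.39e-08), and it was -3.24 as well when CD8SP replicate 1 was also left out (adjusted p = 1.82e-07). CD4SP and DN were not called apart (-0.94 ± 0.40, adjusted p = 0.0773), but without DN replicate 1 the difference was -1.57 (adjusted p = 3.25e-06). Markers of NK and innate lymphoid cells, some of which can carry αE, averaged 1.84, 2.82 and 2.97 on the DN arrays, between -0.09 and 0.08 in DP, between -0.15 and 0.06 in CD4SP, and between 1.58 and 1.66 in CD8SP. In CD4SP against DP, 3 of the 7 were called higher, 1 lower and 3 not, against 16.4% and 16.2% of all genes higher and lower. On the CD4SP arrays Klrd1 lay between 1.37 and 1.55 and Nkg7 between 1.03 and 1.71. Gzma lay between -4.72 and -3.78 there, which lowers the average of the list. In CD8SP against DP, 2 of the 7 were called higher (Nkg7 by 7.52 and Klrd1 by 5.90), 1 lower (Gzma) and 4 not. Over all genes 18.2% were called higher there and 20.9% lower. Of the uncalled markers, Ncr1 lay at 0.55 (adjusted p = 0.118) and Tyrobp at -0.09 (adjusted p = 0.862). The γδ T cell markers averaged between 2.35 and 2.92 in DN, between -0.15 and 0.17 in DP, between 0.47 and 0.58 in CD4SP and between 0.15 and 0.53 in CD8SP. Of 6 regulatory T cell markers 4 were called higher in CD4SP than in DP and 4 in CD8SP than in DP (16.4% and 18.2% of all genes). The list averaged between 0.89 and 1.25 in DN, between -0.04 and 0.03 in DP, between 1.59 and 1.72 in CD4SP and between 0.91 and 1.02 in CD8SP. In CD8SP Foxp3 read 0.20, -0.00 and 0.28 and Il2ra 0.24, -0.78 and -0.62, whereas Gpr83 lay between 3.30 and 3.56. Foxp3 read 0.41, 0.39 and 0.68 in CD4SP and 0.34, -0.03 and -0.31 in DP. The part of these cells in the Itgae values was not tested.

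Itgb7 (gene ID 16421), the β chain of both αEβ7 and α4β7, was high in both populations with a high level of TCRb. On the arrays its log2 values were -0.01, 0.83 and 0.66 in DN, 0.06, 0.09 and -0.15 in DP, 3.60, 3.61 and 3.72 in CD4SP, and 4.14, 4.14 and 4.09 in CD8SP. All 6 CD4SP and CD8SP arrays lay above the DN and DP arrays by a wide gap, and no CD4SP array reached a CD8SP array. Itgb7 was 12.5-fold higher in CD4SP than in DP (3.64 ± 0.18, adjusted p = 1.08e-07) and 17.4-fold higher in CD8SP than in DP (4.12 ± 0.18, adjusted p = 4.25e-08). CD4SP and CD8SP were not called apart (-0.48 ± 0.18, adjusted p = 0.104, 95% interval -0.87 to -0.09), although without DN replicate 1 they were (adjusted p = 0.00652). The small fall in DP relative to DN (-0.49 ± 0.18, adjusted p = 0.0485) came from overlapping arrays. It was lost when any single array other than DN replicate 1 was left out (adjusted p from 0.0591 to 0.181), and without DN replicate 1 it was -0.74 (adjusted p = 0.000288).

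Itga4 (gene ID 16401), the α chain of α4β7 and α4β1, took another course and was higher in DN alone. The log2 values were 0.39, 0.93 and 0.85 in DN, -0.05, 0.03 and 0.02 in DP, -0.11, -0.11 and -0.08 in CD4SP, and 0.14, -0.12 and -0.10 in CD8SP. Every DN array lay above every other array. Itga4 fell in DP relative to DN by 0.72 ± 0.13 (log2, adjusted p = 0.00127), with 3 of its 5 probe sets called, each lower. The called probe sets gave -1.04, -0.99 and -0.92, and the others -0.44 and -0.22. Its least variable probe set alone did not keep the call (-0.22, adjusted p = 0.143). That choice leans towards small differences, and so against a call. Itga4 was also lower than in DN in CD4SP (-0.83 ± 0.13, adjusted p = 0.000409) and in CD8SP (-0.75 ± 0.13, adjusted p = 0.000944). Between CD4SP and DP it differed by -0.10 (95% interval -0.39 to 0.19) and between CD8SP and DP by -0.03 (-0.32 to 0.26), and 0 of its 5 probe sets was called in either comparison by limma, with 0 in CD4SP and 1 in CD8SP at an unadjusted p under 0.05.

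Read as pairs, the chains of the β7 receptors did not move by like amounts. For αEβ7, the α value minus the β value of the same array was 1.37, 2.38 and 2.61 in DN, -0.15, -0.06 and 0.21 in DP, -2.05, -1.88 and -1.97 in CD4SP, and 3.30, 3.57 and 3.56 in CD8SP. Relative to DP, Itgae thus changed by more than Itgb7 in CD8SP and by less in CD4SP, and none of the 4 groups overlapped with another. For α4β7 the α value minus the β value differed from DP by -3.74 in CD4SP and by -4.15 in CD8SP, again without overlap, whereas the DP and DN arrays overlapped (difference -0.23, exact permutation p = 0.2). With 3 arrays against 3, the smallest two-sided exact permutation p is 0.1, which every pair and comparison without overlap reached. Over the 48 tests of 8 pairs in 6 comparisons the lowest adjusted p is 0.117, so none passes.

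Itgb1 (gene ID 16412), the β chain with the most partners, was lower in the populations with a high level of TCRb. In log2 units it read 0.02, -0.09 and -0.02 in DN, 0.01, 0.05 and -0.06 in DP, -0.49, -0.36 and -0.33 in CD4SP, and -1.06, -0.84 and -0.90 in CD8SP. DN and DP overlapped, and below them came first CD4SP and then CD8SP with no overlap. Itgb1 fell relative to DP by 0.39 ± 0.08 in CD4SP (log2, adjusted p = 0.00409) and by 0.93 ± 0.08 in CD8SP (adjusted p = 7.88e-06), which left it 0.54 ± 0.08 higher in CD4SP than in CD8SP (adjusted p = 0.0021). The last call was lost when only the probe set with the highest mean (0.30, adjusted p = 0.54) or the least variable one (0.08, adjusted p = 0.824) was used, and after quantile normalization (0.32, adjusted p = 0.262). Its 6 probe sets did not all do so. With only the probe set of highest mean, 1426919_at, neither fall was called (-0.09 in CD4SP, adjusted p = 0.836, and -0.39 in CD8SP, adjusted p = 0.276). That choice leans towards probe sets that read above DP, and so against such a fall. In CD8SP 1426920_x_at, 1426918_at, 1452545_a_at and 1427771_x_at fell relative to DP by 1.03, 1.36, 1.46 and 1.50, whereas 1426919_at (-0.39) and 1438119_at (0.15) were not called. The same 4 probe sets were called in CD4SP. The least variable probe set was 1438119_at, a choice that leans towards small differences. Taken from 1438119_at alone, Itgb1 differed from DP by 0.23 in CD4SP (adjusted p = 0.343) and 0.15 in CD8SP (adjusted p = 0.518). This probe set was called higher in DP than in DN (0.50, adjusted p = 0.029).

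Among the α partners of β1, Itga6 (gene ID 16403), the laminin receptor chain, peaked in DP. Its log2 values were -1.02, -0.88 and -0.90 in DN, -0.20, 0.13 and 0.07 in DP, -0.59, -0.41 and -0.36 in CD4SP, and -1.48, -0.96 and -0.90 in CD8SP. The DP arrays were the highest with no overlap, and the DN and CD8SP arrays overlapped. Itga6 was higher in DP than in DN by 0.93 ± 0.15 (log2, adjusted p = 0.000605) and fell in CD8SP relative to DP by 1.11 ± 0.15 (adjusted p = 0.000164), or 2.16-fold. In CD4SP it differed from DP by -0.45 ± 0.15 (adjusted p = 0.0406), a call that was lost without DN replicate 2 or 3, DP replicate 2 or 3 or any one CD4SP array (adjusted p from 0.0539 to 0.133). It was higher in CD4SP than in CD8SP by 0.66 ± 0.15 (adjusted p = 0.0164), which was lost without CD4SP replicate 2 (adjusted p = 0.0568) or 3 (adjusted p = 0.0649).

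The mean values of Itga6 and Itgb1 were both lower than in DP at the later stages. The α6β1 difference between chains stood at -0.06 in CD4SP and -0.18 in CD8SP relative to DP, with overlapping arrays in each case (exact permutation p = 0.6 and 0.4). Between DP and DN the α6β1 difference was 0.90, without overlap, since Itgb1 differed by only 0.03 there (95% interval -0.15 to 0.22).

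Itga5 (gene ID 16402), the fibronectin receptor chain, varied least. It read on the log2 scale -0.18, -0.19 and -0.17 in DN, -0.02, -0.01 and 0.03 in DP, 0.06, 0.17 and 0.19 in CD4SP, and 0.29, -0.15 and 0.02 in CD8SP. DN was lowest, but no 2 groups that follow each other in level were called apart. Relative to DP the difference was 0.14 in CD4SP (95% interval -0.09 to 0.37) and 0.05 in CD8SP (-0.18 to 0.28), and 0 of 4 probe sets was called by limma, with 1 in each comparison at an unadjusted p under 0.05. CD4SP was called higher than DN by 0.32 ± 0.10 (adjusted p = 0.027), which was lost without any one DN array or without CD4SP replicate 2 or 3 (adjusted p from 0.056 to 0.0808). As the mean Itgb1 value was lower at these stages, the α5β1 difference between chains lay 0.53 above DP in CD4SP and 0.98 above it in CD8SP, without overlap. That of α4β1 lay 0.29 and 0.91 above DP. Each of these had an exact permutation p of 0.1 (adjusted p = 0.117). They rest on the mean of 6 Itgb1 probe sets that disagreed, from -0.68 to 0.23 in CD4SP and from -1.50 to 0.15 in CD8SP against DP.

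**Figure D2:**
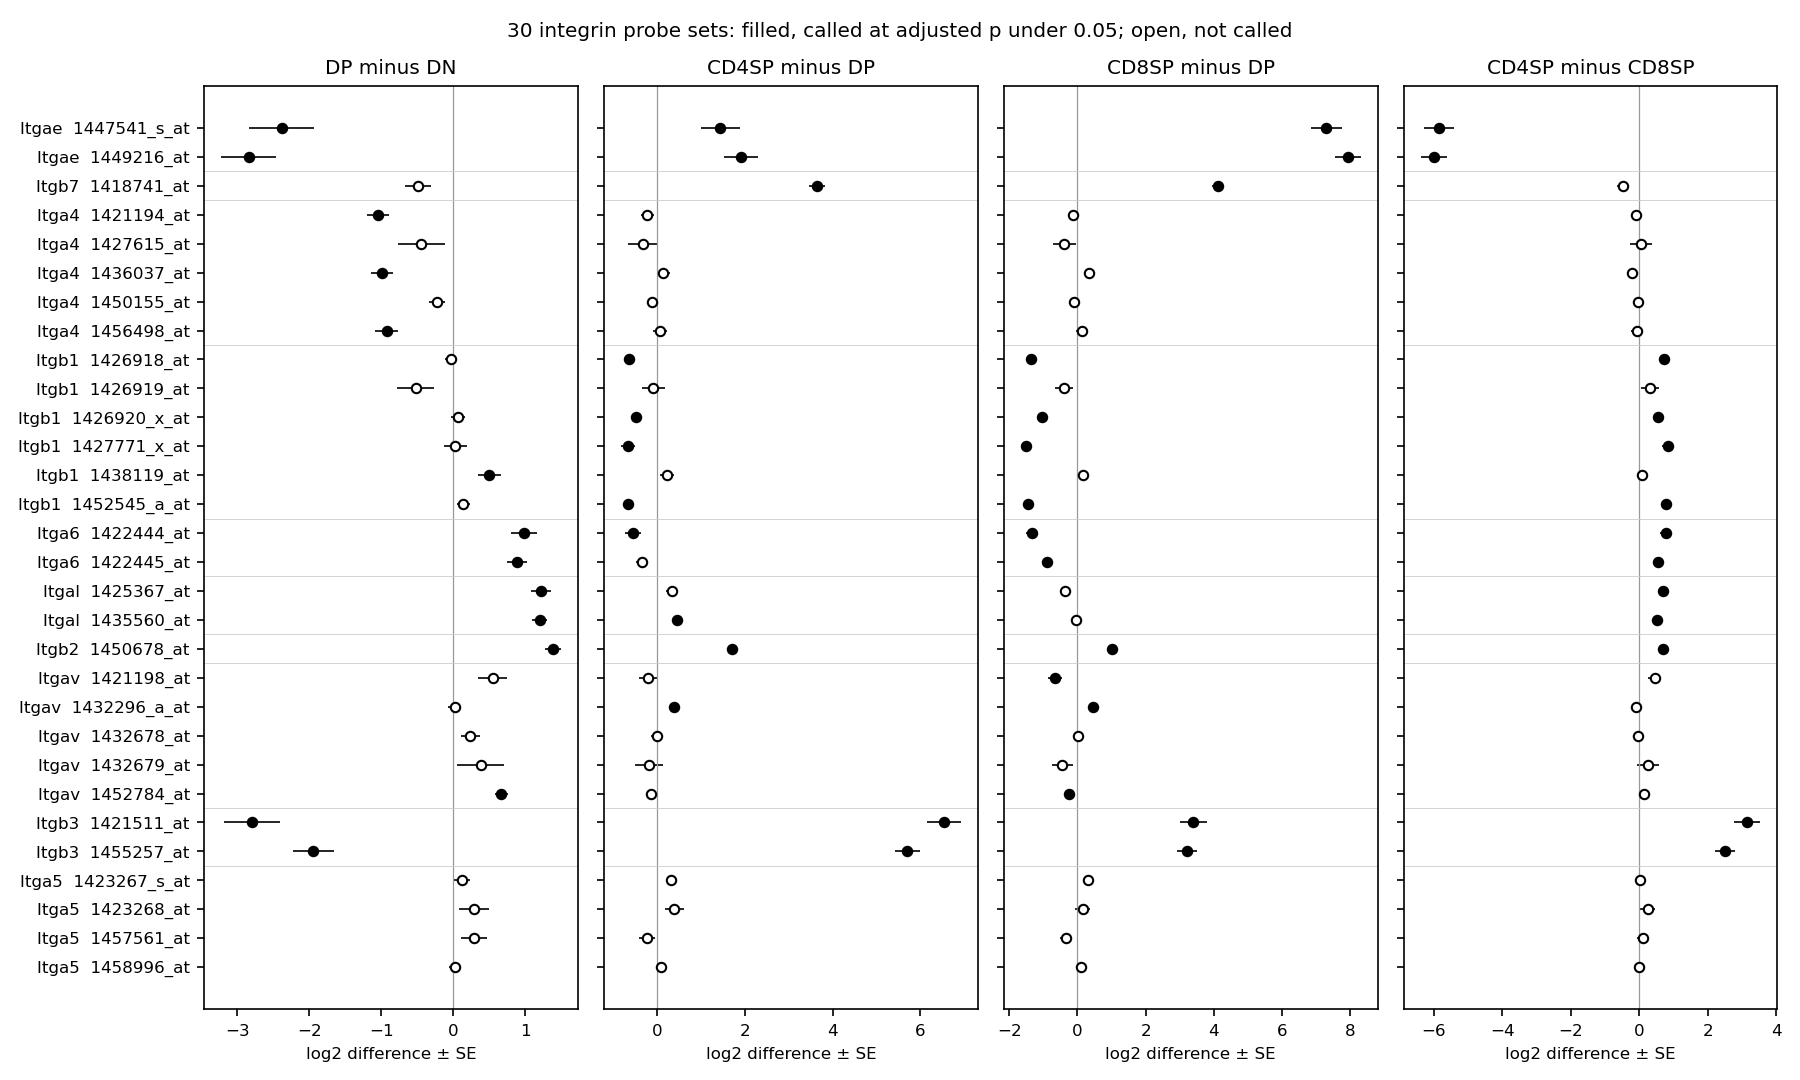
Log2 difference ± SE of each of the 30 integrin probe sets in 4 comparisons, with filled points for probe sets called at an adjusted p under 0.05 over 34945 probe sets and open points for the others. Both Itgae probe sets stand far to the right in CD8SP minus DP (7.29 and 7.92) and both Itgb3 probe sets in CD4SP minus DP (5.71 and 6.54), while the 6 of Itgb1 and the 5 of Itgav spread to both sides of 0 in CD8SP minus DP.

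The chains of LFA-1 were higher in DP than in DN. Itgal (gene ID 16408), the αL chain, read -1.45, -1.11 and -1.06 in DN, -0.21, 0.11 and 0.09 in DP, 0.30, 0.41 and 0.47 in CD4SP, and -0.26, -0.12 and -0.26 in CD8SP (log2). Itgb2 (gene ID 16414), the β2 chain that all leukocyte β2 integrins share, read -1.57, -1.41 and -1.18 in DN, -0.12, 0.03 and 0.09 in DP, 1.76, 1.69 and 1.64 in CD4SP, and 0.98, 0.98 and 1.04 in CD8SP. The 4 groups did not overlap for Itgb2, and for Itgal only DP and CD8SP did. Itgal rose in DP relative to DN by 1.21 ± 0.12 (adjusted p = 2.29e-05) and Itgb2 by 1.39 ± 0.10 (adjusted p = 2.64e-06), or 2.31-fold and 2.61-fold.

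After the DP stage the LFA-1 chains parted. Itgb2 rose further over DP, by 1.70 ± 0.10 in CD4SP (3.24-fold, adjusted p = 5.33e-07) and by 1.0 ± 0.10 in CD8SP (adjusted p = 2.22e-05), and it lay 0.70 ± 0.10 higher in CD4SP than in CD8SP (adjusted p = 0.00165). Itgal differed from DP by -0.21 ± 0.12 in CD8SP (adjusted p = 0.205, 95% interval -0.48 to 0.06). In CD4SP it was higher than in DP by 0.39 ± 0.12 (adjusted p = 0.0301), which was lost without DP replicate 1 or CD4SP replicate 2 or 3 (adjusted p from 0.0805 to 0.113). It was higher in CD4SP than in CD8SP by 0.61 ± 0.12 (adjusted p = 0.00902). The α value minus the β value of αLβ2 differed from DP by -1.30 in CD4SP and by -1.21 in CD8SP without overlap, but the CD4SP and CD8SP arrays overlapped (difference -0.09, exact permutation p = 0.5).

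Itgb3 (gene ID 16416) codes for β3, known best from platelets and from αvβ3 on other cells. Log2 values of this gene were 1.50, 2.80 and 2.80 in DN, 0.32, -0.51 and 0.18 in DP, 6.06, 6.13 and 6.18 in CD4SP, and 3.0, 3.56 and 3.36 in CD8SP. The 4 groups did not overlap, with CD4SP highest and DP lowest. Itgb3 was 69.7-fold higher in CD4SP than in DP (6.12 ± 0.33, adjusted p = 2.38e-07), number 11 by size among the genes higher in that comparison, and 9.89-fold higher in CD8SP than in DP (3.31 ± 0.33, adjusted p = 1.81e-05). CD4SP lay 2.82 ± 0.33 above CD8SP (7.05-fold, adjusted p = 0.000445). Both probe sets were called higher in CD4SP than in DP, by 5.71 and 6.54.

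In DP Itgb3 was lower than in DN by 2.37 ± 0.33 (log2, adjusted p = 0.000227), or 5.16-fold. CD8SP exceeded DN by 0.94 ± 0.33 (adjusted p = 0.0425), and leaving out DN replicate 1 gave 0.51 (adjusted p = 0.117). Of its probe sets, 1421511_at was not called in CD8SP against DN (0.61, adjusted p = 0.247). The gene's call was also lost without DP replicate 3, any one CD4SP array or CD8SP replicate 2 or 3 (adjusted p from 0.0536 to 0.119). Platelet and megakaryocyte markers averaged between -0.32 and -0.11 on the DN arrays, between -0.06 and 0.03 in DP, between 0.00 and 0.08 in CD4SP and between -0.09 and 0.13 in CD8SP. Of 6 such markers 1 was called in CD4SP against DP (Pf4, higher by 0.39, adjusted p = 0.022), where 32.7% of all genes were called. In CD8SP against DP 1 was called higher (Pf4, 0.46) and 2 lower (Gp9, -0.51, and Gp5, -0.39). Over all genes 18.2% were called higher there and 20.9% lower. Itga2b, the platelet partner of β3, was higher in CD4SP than in DP by 0.27 ± 0.08 (adjusted p = 0.0217), which was lost without DP replicate 1 or 3 or CD4SP replicate 2 or 3 (adjusted p from 0.0507 to 0.0843).

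Itgav (gene ID 16410), the αv chain, did not go with Itgb3. Its values on the log2 scale were -0.43, -0.35 and -0.33 in DN, -0.08, 0.01 and 0.07 in DP, -0.12, 0.05 and -0.06 in CD4SP, and -0.09, -0.09 and -0.35 in CD8SP. The DN mean was the lowest, CD8SP replicate 3 lay within the DN values, and the CD4SP arrays overlapped with those of DP and of CD8SP. Every CD8SP array lay below every DP array, the nearest at -0.09 in CD8SP and -0.08 in DP. Itgav was higher in DP than in DN by 0.37 ± 0.09 (log2, adjusted p = 0.00769), but 1 of its 5 probe sets was called there, 1452784_at at 0.67. Each other way of choosing or combining its probe sets ended the call. Choice by the highest mean or the least spread leans against such a call. The median (0.22, adjusted p = 0.188) and the most variable probe set (0.38, adjusted p = 0.411) ended it too. CD4SP differed from DP by -0.04 (95% interval -0.24 to 0.16) and CD8SP from DP by -0.18 (-0.38 to 0.02). In CD8SP against DP its probe sets were called in both directions: 1432296_a_at higher by 0.46, and 1421198_at and 1452784_at lower at -0.66 and -0.26. The α value minus the β value of αvβ3 was -1.93, -3.16 and -3.13 in DN, -0.40, 0.52 and -0.11 in DP, -6.18, -6.08 and -6.24 in CD4SP, and -3.10, -3.65 and -3.71 in CD8SP. Among these groups only DN and CD8SP overlapped (difference of CD8SP minus DN -0.74, exact permutation p = 0.3).

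**Figure D3:**
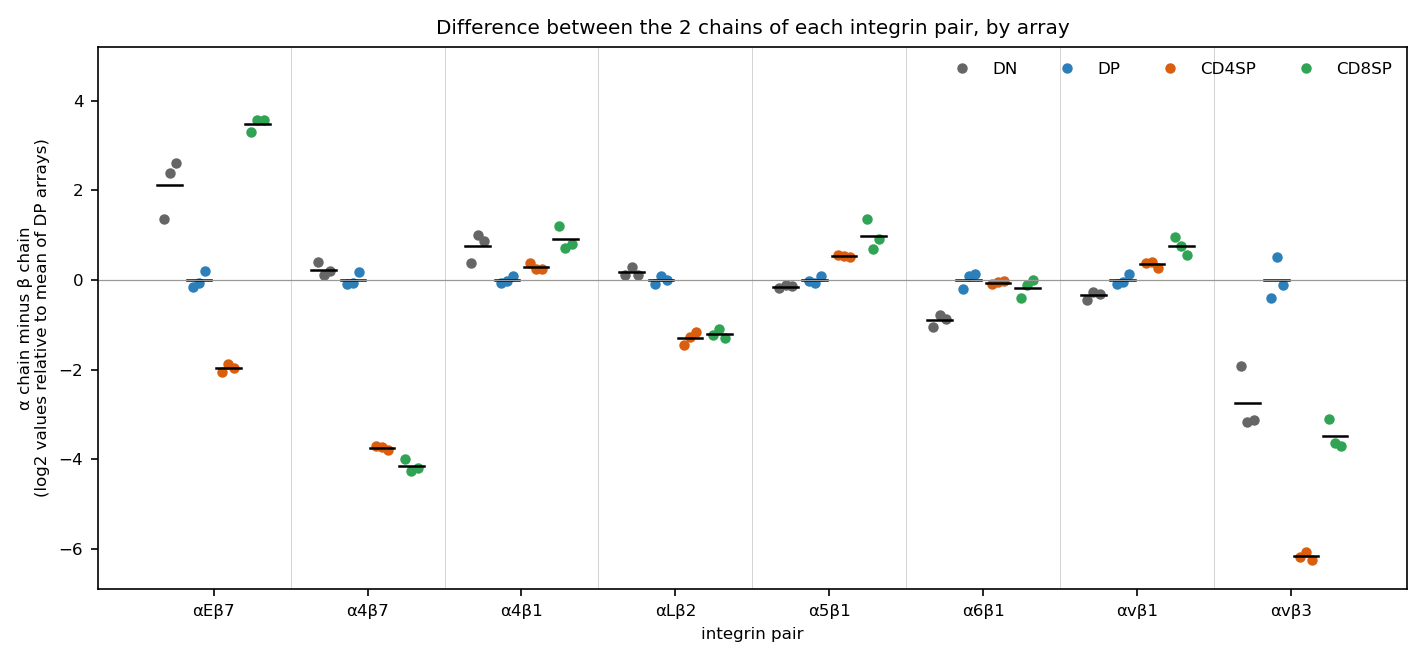
Log2 value of the α chain minus that of the β chain on each of the 12 arrays for 8 integrin pairs, with points for arrays and lines for group means. For αEβ7 CD8SP lies above 0 (3.30 to 3.57) and CD4SP below it (-2.05 to -1.88), for αvβ3 CD4SP lies between -6.24 and -6.08, and for α6β1 DP, CD4SP and CD8SP overlap.

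The order of the 4 populations thus differed from chain to chain. For Itgb2 it was CD4SP, CD8SP, DP and DN, and for Itgb3 it was CD4SP, CD8SP, DN and DP, from high to low, with each neighbour called apart, although for Itgb3 the call between CD8SP and DN was lost without DN replicate 1 (adjusted p = 0.117). For Itgae it was CD8SP, DN, CD4SP and DP, where DN and CD4SP were not called apart. Relative to DN, CD8SP was 31.7-fold higher in Itgae (4.99 ± 0.40, adjusted p = 4.09e-06), and without DN replicate 1 the difference was 4.36 (adjusted p = 8.72e-09). CD4SP was 8.46-fold higher than DN in Itgb2 (3.08 ± 0.10, adjusted p = 1.06e-08). Itgb7 was higher than in DN by 3.15 in CD4SP (adjusted p = 2.35e-07) and by 3.63 in CD8SP (adjusted p = 1.32e-07).

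Of 16 other integrin chains 14 had a value. In DP against DN 1 was called, lower (36.6% of all genes called), and in CD4SP against DP 1 was called, higher (32.7%). In CD8SP against DP 2 were higher and 3 lower (18.2% and 20.9% of all genes), so that the share called lay near that of all genes, and between CD4SP and CD8SP there was 1 each way (7.78% and 4.91%). Itgb4, the β4 chain, which has α6 as its only known partner, read 1.06, 2.20 and 2.21 in DN, -0.01, 0.17 and -0.16 in DP, -0.24, -0.56 and 0.51 in CD4SP, and -2.66, -1.30 and -2.42 in CD8SP (log2). Each DN array lay above and each CD8SP array below all other arrays. Itgb4 fell in DP relative to DN by 1.83 ± 0.41 (adjusted p = 0.00474) and in CD8SP relative to DP by 2.13 ± 0.41 (adjusted p = 0.00171). Of the others called in CD8SP against DP, Itga9, a partner of β1, was higher by 0.52 ± 0.12 (adjusted p = 0.00584). The calls of Itgb6 (-0.68), Itgam (-0.69) and Itga2b (0.24) in CD8SP against DP were fragile. That of Itgb6 was lost without DP replicate 1 or 3 or CD8SP replicate 1 or 2 (adjusted p from 0.0586 to 0.065), that of Itga2b without any one DP array or CD8SP replicate 1 (from 0.0604 to 0.091), and that of Itgam without 9 of the 12 arrays, each left out alone (from 0.0516 to 0.114). The call of Itga3 between CD4SP and CD8SP (-0.38, adjusted p = 0.0499) was lost in 20 of 24 alternatives.

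Talin, kindlin-3 and the Rap1 pathway switch integrins into their binding state from inside the cell. Of 30 such activators and adaptors 28 had a value. In DP against DN 15 were called higher and 2 lower (17.8% and 18.8% of all genes), with a median difference of 0.37 against 0.04 over all genes. Stk4, a kinase of this pathway, was higher in DP by 0.87 ± 0.07 (log2, adjusted p = 2.81e-06), Apbb1ip, the Rap1 effector RIAM, by 0.83 ± 0.08 (adjusted p = 1.1e-05) and Flna, filamin A, by 0.85 ± 0.11 (adjusted p = 0.000142). Tln1, talin-1, was higher by 0.61 ± 0.08 and Fermt3, kindlin-3, by 0.49 ± 0.07. Both calls were lost when 1 probe set, that with the highest mean or the least spread, stood for the gene. Either choice leans against a gene being called higher in DP than in DN.

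Against DP, CD4SP had 9 of the 28 called higher and 4 lower (16.4% and 16.2% of all genes), and CD8SP had 8 higher and 7 lower (18.2% and 20.9% of all genes). Rapgef6, an exchange factor of Rap1, read -0.47, -0.10 and -0.28 in DN, -0.19, 0.11 and 0.08 in DP, 1.74, 1.88 and 1.81 in CD4SP, and 1.46, 1.63 and 1.64 in CD8SP. Rassf5, the Rap1 effector RAPL, read -0.11, -0.03 and -0.01 in DN, 0.06, 0.00 and -0.06 in DP, 1.22, 1.15 and 1.18 in CD4SP, and 0.70, 0.75 and 0.82 in CD8SP. Every CD4SP and CD8SP array lay above every DN and DP array for both genes, and DN and DP overlapped. Rapgef6 rose over DP by 1.81 ± 0.11 in CD4SP (adjusted p = 6.95e-07) and by 1.58 ± 0.11 in CD8SP (adjusted p = 1.76e-06). Rassf5 rose by 1.18 ± 0.07 in CD4SP (adjusted p = 4.77e-07) and by 0.76 ± 0.07 in CD8SP (adjusted p = 1.13e-05). The GTPase genes Rap1a and Rap1b were higher in CD4SP than in DP by 0.69 ± 0.08 and 0.66 ± 0.09, and Flna by 0.81 ± 0.11. On the CD8SP arrays these 3 genes also lay above the DP mean, Rap1a between 0.33 and 0.38, Rap1b between 0.22 and 0.50 and Flna between 0.11 and 0.56. In CD8SP the Rap1 inhibitor Sipa1 was higher than in DP by 0.68 ± 0.12, whereas paxillin (Pxn) was lower at -0.70 ± 0.08 and Fermt3 at -0.40 ± 0.07. On the CD4SP arrays Sipa1 was likewise above DP (0.72 to 0.80) and Pxn below it (-0.51 to -0.37), while Fermt3 lay between 0.04 and 0.12. Between CD4SP and CD8SP 7 were called, each higher in CD4SP (7.78% of all genes higher and 4.91% lower), of which Fermt3 (0.48), Stk4 (0.42) and Rassf5 (0.43) had the lowest adjusted p, and limma called 0 in either direction after quantile normalization, with 7 at an unadjusted p under 0.05.

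**Figure D4:**
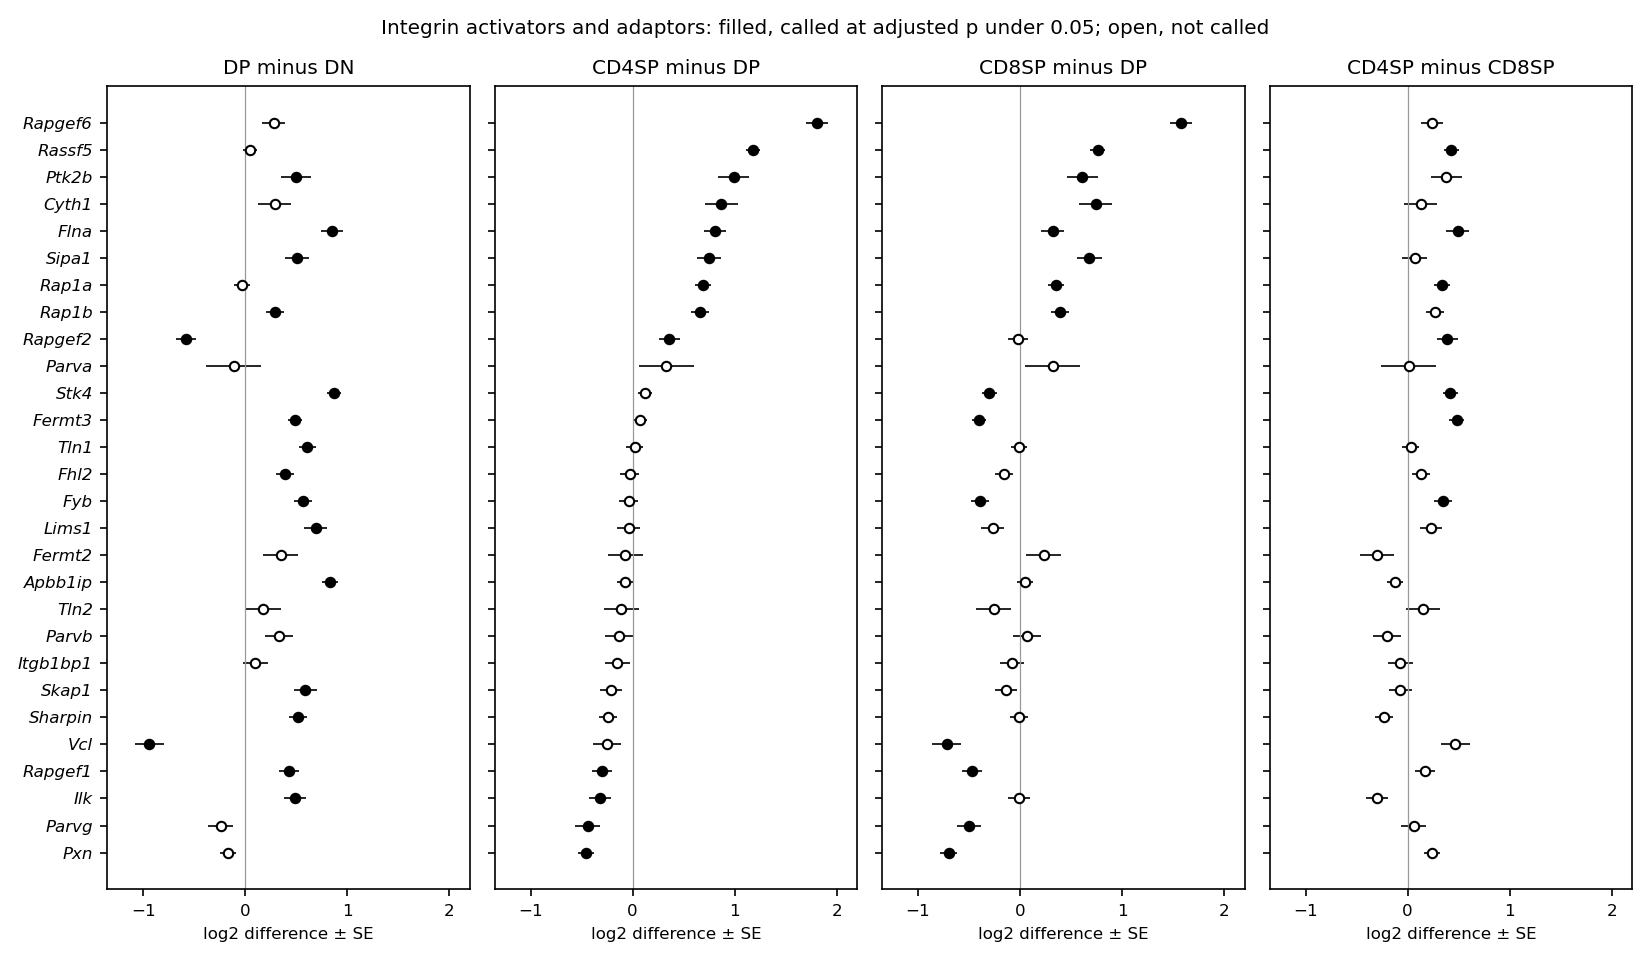
Log2 difference ± SE of the 28 measured integrin activators and adaptors in 4 comparisons, ordered by CD4SP minus DP, with filled points for genes called at an adjusted p under 0.05 over 18193 genes. Rapgef6 (1.81) and Rassf5 (1.18) lead in CD4SP minus DP and stand on the same side in CD8SP minus DP (1.58 and 0.76).

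Genes for integrin ligands were also read in the thymocytes, 15 of 16 with a value. In DP against DN 3 were called higher and 2 lower (17.8% and 18.8% of all genes), in CD4SP against DP 2 higher and 1 lower (16.4% and 16.2%), in CD8SP against DP 3 higher and 1 lower (18.2% and 20.9%), and between CD4SP and CD8SP 1 each way (7.78% and 4.91%). Cdh1, E-cadherin and the ligand of αEβ7, read 2.38, 3.86 and 4.09 in DN, -0.19 to 0.13 in DP, 0.37, 0.33 and 0.62 in CD4SP, and 0.80, 1.06 and 2.24 in CD8SP (log2). The DN arrays were the highest. Thymic stroma markers averaged between -0.36 and 0.11 on the DN arrays, and 2 of 10 were called lower in DP than in DN. The part of other cells in the Cdh1 values was not tested. Cdh1 fell in DP relative to DN by 3.44 ± 0.44 (adjusted p = 0.00012), and in CD8SP it was higher than in DP by 1.36 ± 0.44 (adjusted p = 0.0305), a call that was lost without any one DP array or without CD8SP replicate 3 (adjusted p from 0.0589 to 0.109). Icam1, a ligand of LFA-1, was higher in CD8SP than in DP by 1.94 ± 0.21 (adjusted p = 2.69e-05) and lower in CD4SP than in CD8SP (-1.41, adjusted p = 0.00157). Icam2, another LFA-1 ligand, rose in DP relative to DN by 0.93 ± 0.12 (adjusted p = 9.57e-05) and was lower than in DP in CD4SP (-0.74, adjusted p = 0.0005) and in CD8SP (-0.75, adjusted p = 0.000396). Tgfb1, whose latent form is bound by αv integrins, was higher than in DP by 0.90 ± 0.09 in CD4SP (adjusted p = 1.89e-05) and by 0.43 ± 0.09 in CD8SP (adjusted p = 0.003).

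Likeness of pattern over the 12 arrays was measured by Pearson's r, as a description, since the arrays share their groups. Among the members the highest r was that of the LFA-1 chains Itgal and Itgb2 (0.89), and Itgae and Itgb7 reached 0.69, whereas Itgav and Itgb3 were at 0.03. The lowest was that of Itgb7 and Itgb1 (-0.89). Over all genes with a clear symbol, Itgae was most like Lcn4 (0.984), Klrd1 (0.982) and Defb7 (0.976), and Itgb7 was most like Cnn2 (0.996), Pced1b (0.995) and Arrb2 (0.994). Itgb3 was most like Ccr8 (0.993), Gpr183 (0.989) and Ampd3 (0.987), and Itgb2 was most like Tnik (0.995), Gimap8 (0.995) and Slfn2 (0.992). For Itgal the nearest were Prrg1 (0.989), Slc44a2 (0.986) and Cflar (0.985), for Itgb1 Abhd17c (0.990), Mtmr4 (0.982) and Sh3rf1 (0.981), and for Itga6 Ppm1k (0.982), Kidins220 (0.981) and Rnf14 (0.980). For Itga4 they were Hdac9 (0.978), Hes1 (0.978) and Ms4a1 (0.974), the last a B cell marker. Itga5 (Rims1, 0.965) and Itgav (Abca7, 0.928) had the lowest values for their nearest gene. The genes of emigration Klf2 and Ccr7 were higher than in DP by 5.46 and 7.23 in CD4SP and by 5.56 and 6.85 in CD8SP. Itgb7, Itgb2 and Itgb3 were also higher than DP in both. Neither Klf2 nor Ccr7 was among the 3 genes most like Itgb7, a rank that does not say how alike the patterns are. Klf2 was lower in DP than in DN as well (-1.65, adjusted p = 0.00156).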

How the data were processed

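Probe set values of 12 Affymetrix mouse arrays were used, 3 for each of DN, DP, CD4SP and CD8SP thymocytes, grouped by the labels. The deposited values are log2 values per probe set from which the mean over the 3 DP arrays had been subtracted: that mean is 0 for every probe set (largest deviation 1.27e-06), while the base 2 of the logarithm was taken from the range of values (-9.94 to 10.28) and is not stated. The submitters' processing notes name MAS5, with neither its version nor what it was used for. Other steps, a genome build and the scaling between arrays are not given in the sources used here. Signal levels are lost through the centring, so dim probe sets could not be filtered out, and precision is limited by the number of arrays. The array medians lay between -0.10 and 0.05, and no value was missing.

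Of 45101 probe sets, 64 are controls. The platform annotation gives 1 symbol for 34958, several for 932 and none for 9211, and 34945 probe sets with 1 symbol were used, for 18193 genes, of which 9183 had 1 probe set. A RefSeq gene on GRCm38.p6 was found for 34741 of these probe sets, and 0 symbols needed updating. A gene's value was the mean of its probe sets. The fit used all 12 arrays and a mean per group (R 4.3.3, limma 3.58.1, functions lmFit, contrasts.fit and eBayes, the last without trend), with p-values adjusted by Benjamini and Hochberg's method over all genes in each of 6 comparisons. The same fit was made over all probe sets. Genes and probe sets were called at an adjusted p under 0.05. Every adjusted p, ± SE and 95% interval is from this fit unless an exact permutation test is named. The script was tested on simulated data. Alternatives changed the probe set that stands for a gene, the scaling between arrays, array weights, the prior spread, the arrays in the fit, the genes tested and the use of replicate numbers. The probe set of highest mean was chosen by its mean over the 12 arrays, in values relative to DP. It is thus not the brightest one, and the choice leans towards probe sets that read above DP on other arrays. Spread was the SD over all 12 arrays, group differences included. The least variable probe set therefore leans towards small differences and the most variable one towards large ones. For 8 known pairs, α minus β values per array were compared by two-sided exact permutation tests (Python 3.11.15, pandas 2.3.3, scipy 1.17.1).

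The members and all gene and marker lists were chosen with earlier results of these data known. All members were described. Of each pathway list, up to 5 called genes with the lowest adjusted p per comparison could be named, beside the 3 genes most like each member, Klf2, Ccr7 and the sort genes. Cell type markers and further list genes named with values (Nkg7, Klrd1, Gzma, Ncr1, Tyrobp, Pf4, Gp9, Gp5, Foxp3, Il2ra, Gpr83) were picked after their values were seen. List genes without a value were not analysed here.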

Additional observations from a re-analysis of the deposited data

Results flagged for a closer look

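For 6 chains the change from DP differed between the CD4SP and CD8SP populations. The test of that difference is the comparison of CD4SP with CD8SP in the limma fit over all genes, in which 12.7% of all genes passed. Itgae showed the largest gap: it was higher than in DP by 1.67 in CD4SP and by 7.60 in CD8SP (log2), a difference of -5.93 (adjusted p = 1.09e-05). For Itgb3 the order was the opposite, with 6.12 in CD4SP and 3.31 in CD8SP and a difference of 2.82 (adjusted p = 0.000445). Itgb2 exceeded DP by 1.70 in CD4SP and by 1.0 in CD8SP, a difference of 0.70 (adjusted p = 0.00165). Itga6 lay below DP in both, at -0.45 in CD4SP and -1.11 in CD8SP, a difference of 0.66 (adjusted p = 0.0164). Itgal stood at 0.39 in CD4SP and at -0.21 in CD8SP, where it was not called, a difference of 0.61 (adjusted p = 0.00902). For Itgb1 the values were -0.39 in CD4SP and -0.93 in CD8SP, a difference of 0.54 (adjusted p = 0.0021). After quantile normalization 1 of the 10 chains, Itgae, was still called in this comparison. Groups of 3 arrays are too small for a test of single outlying arrays.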

How the results depend on the processing

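Over the 60 member values (10 chains in 6 comparisons) and 1488 recomputed values, 1373 kept their side of the threshold and, if called, their direction, 82 lost the call, 13 gained one, 6 turned sign with a call before or after, and 14 uncalled values turned sign by more than their SE. The 6 values were Itgb1 with its least variable probe set (0.23 in CD4SP and 0.15 in CD8SP against DP, and 0.73 in CD4SP and 0.66 in CD8SP against DN) and Itgav with the probe set whose mean was highest (0.37 in CD4SP and 0.46 in CD8SP against DP). The ligand gene Lamb1 also changed sign with that choice, to -0.85 in DP against DN. Choice by the highest mean leans towards probe sets that read above DP on other arrays. It thus leans towards lower values in DP against DN and higher ones in CD4SP and CD8SP against DP. With it 2253 of all genes were called higher and 3862 lower in DP against DN, instead of 3240 and 3420. In CD8SP against DP these counts were 4003 and 2483, instead of 3307 and 3796. The part of this lean in the single sign changes was not tested. With the least variable probe set for each gene, 4 instead of 7 chains were called in CD4SP against DP. In CD4SP against CD8SP 1480 instead of 2308 of all genes were then called. Choice by the least spread leans towards small differences, and so against calls. Array weights gave 3578 genes in CD4SP against CD8SP and a fit of the 6 arrays alone 1348.

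Quantile normalization, which forces 1 distribution on all arrays, had the largest effect. The values of the DP arrays, each close to the reference mean, had an SD of 0.19 to 0.21 over genes, against 0.67 to 0.83 on the other arrays. This SD was 0.77 to 0.79 on the CD4SP arrays and 0.82 to 0.83 on the CD8SP arrays. The part of these spreads in the lost calls was not tested. With quantile normalization 4 chains were called in CD4SP against DP and 1 instead of 6 in CD4SP against CD8SP. Genes called numbered 3113 instead of 6660 in DP against DN, 2913 instead of 5942 in CD4SP against DP, 2761 instead of 7103 in CD8SP against DP, 229 in CD4SP against CD8SP, 4165 instead of 7942 in CD4SP against DN (1740 higher and 2425 lower, against 4114 and 3828) and 3134 instead of 7447 in CD8SP against DN. Member probe sets called numbered 6 instead of 13, 2 instead of 13, 12 instead of 20 and 13 instead of 20 in CD4SP against DP, CD4SP against CD8SP, CD4SP against DN and CD8SP against DN. Without 1 array at a time, 7 to 8 chains were called in DP against DN, 5 to 7 in CD4SP against DP, 6 in CD8SP against DP, 5 to 7 in CD4SP against CD8SP, 6 to 9 in CD4SP against DN and 6 to 7 in CD8SP against DN. In CD4SP against CD8SP 1374 to 2789 of all genes were then called, with 1374 without CD4SP replicate 3 and 1528 without CD4SP replicate 2.

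Residuals of arrays with the same replicate number correlated by 0.11 to 0.16 for number 1, -0.03 to 0.09 for number 2 and 0.02 to 0.14 for number 3, against -0.16 to 0.08 between different numbers. The ranges of numbers 2 and 3 overlapped with that of different numbers, and that of number 3 reached further above it. Such ranges are no test of a pairing. The arrays numbered 1 were more alike than any with different numbers. With these as a factor 10 instead of 9 chains were called in CD4SP against DN (Itgae, adjusted p = 0.0373), the other counts of chains stayed as they were, and 3128 of all genes were called in CD4SP against CD8SP. With a replicate block 7 instead of 8 chains were called in DP against DN, where Itgb7 was lost (adjusted p = 0.0512), and the counts of the other comparisons were 7, 6, 6, 9 and 7, as without it. More of all genes were called with the block in each of the 6 comparisons. In CD4SP against CD8SP 1723 were higher and 1081 lower, instead of 1415 and 893. The loss of signal levels and 3 arrays per group limit what small differences can show.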
